A study of Rattus norvegicus with 11 samples.

Results

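LY294002 is a small-molecule inhibitor of phosphoinositide 3-kinase (PI3K), and its effect was measured in REF52 cells, an established rat fibroblast line, while the cells were given serum back after deprivation. The 4 arrays described here, of 11 in the series, were chosen by their labels alone: 2 of cells with a control adenovirus (CMV) in serum and 2 of cells with the same virus in serum with LY294002. All cells had been grown in 10% serum and held in 0.25% serum for 48 hours before infection, and the medium was then added back. None of the 4 arrays carries added E2F1, the cell cycle transcription factor that the study's other adenovirus expresses. The labels used here give no dose, exposure time or vehicle for LY294002. Nor do they tell if the arrays of a group stand for separate cultures; a p-value here therefore covers the spread from array to array only, and that spread may be technical. The comparison asks what blocking PI3K does to the transcript response to serum without added E2F1, and each LY294002 array is given separately.

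PI3K is switched on by growth factor receptors and makes the membrane lipid that recruits the kinase Akt. Akt keeps FOXO transcription factors out of the nucleus, favours mTOR signalling and the activity of SREBP factors on genes of cholesterol and fatty acid synthesis, and helps cells to enter the cycle. Serum also acts through the ERK kinase cascade, which switches on early genes, among them genes for phosphatases that turn ERK off again.

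Signals are the deposited intensities on a linear scale, with the trimmed mean at 500.0 on every array; differences are on the scale log2(signal + 16). The number of arrays limits the precision. The arrays with LY294002 differed from each other: array 1 correlated with the serum arrays at 0.980 and 0.977, close to the 0.980 between the serum arrays themselves, whereas array 2 correlated at 0.958 with each of them. The SD over all probe sets of the difference from the serum mean was 0.39 on array 1 and 0.59 on array 2. Array 2 also had a higher mean signal (697, against 654 to 656 on the other 3), a lower median (7.56 against 7.67 to 7.76 on the log2 scale) and a larger excess of 3' over 5' signal for GAPDH and actin (0.33 against 0.12 to 0.19 on the log2 scale, a measure that rises with RNA degradation). The part of these differences in the results of array 2 was not tested, and in such bulk RNA fewer cells of a type and less RNA per cell cannot be told apart.

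The fibroblast label was set against 18 markers, all of them measured. Their summed signal was 123300 and 118000 on the serum arrays, 122300 on LY294002 array 1 and 95260 on array 2. Col1a1, Vim, Fn1 and S100a4 gave signals of at least 11762 on all 4 arrays, whereas Pdgfra stayed at 100 or less. For 33 markers of other cell types the sum was 3688 and 3465 in serum, 3732 on LY294002 array 1 and 3929 on array 2; none was listed at 0, and Cdh1, the epithelial cadherin, lay between 3.04 and 4.66. Myh1, a muscle myosin gene, was the exception to low signals in that list, with 1012 and 853 in serum and 1063 and 1771 with LY294002.

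With both LY294002 arrays together, 0 of 15866 probe sets (0.0%) passed the test at an adjusted p of 0.05 (limma, Benjamini-Hochberg over all probe sets). At an unadjusted p under 0.05, 1050 probe sets were found, 563 higher (3.55%) and 487 lower (3.07%), against 793.3 that would be reached without any change. Array 1 alone against the serum arrays also gave 0 calls (0.0%; 751 at an unadjusted p under 0.05), and array 2 alone gave 10 (0.063%; 2225 at an unadjusted p under 0.05), with 1 higher and 9 lower. In a fit of 1 array against 2, the lone LY294002 array has no spread of its own and takes that of the other groups, so these calls describe that array and leave out how far the LY294002 arrays differ. By size, 37 probe sets (0.233%) on array 1 lay at least 2-fold above both serum arrays and 35 (0.221%) at least 2-fold below; on array 2 these were 160 (1.01%) and 427 (2.69%). This 2-fold count needs a gap of 1 on the log2 scale to the nearest serum array and a mean signal of at least 100 in the higher group. Both LY294002 arrays met it together for 10 probe sets above (0.063%) and 14 below (0.0882%), of which 6 and 13 have a single gene symbol. With an offset of 64 in place of 16 these counts were 3 and 5.

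Among genes above both serum arrays, Akap12, Anp32a and Slc20a2 had LY294002 arrays that lay close together. Akap12, a scaffold that anchors protein kinases A and C, gave 2744 and 3267 in serum against 6511 and 6626 with LY294002 (arrays 1 and 2), a log2 change of 1.13 ± 0.24 (SE). Slc20a2, a sodium-phosphate cotransporter, gave 489 and 516 against 1107 and 1167, a change of 1.15 ± 0.16. Both LY294002 arrays of these genes lay well clear of the serum arrays, although the adjusted p was 0.508 for Akap12 and 0.288 for Slc20a2. A second probe set of Akap12 went the same way (738 and 850 against 1750 and 1377), whereas one of Slc20a2 did not separate the groups in this way (958 and 644 against 996 and 1059). Anp32a, a nuclear phosphoprotein that inhibits the phosphatase PP2A, gave 684 and 547 against 1630 and 1423.

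Another group of genes was higher on array 1 and higher again on array 2. Hbegf, a ligand of the EGF receptor, gave 358 and 364 in serum, 738 on LY294002 array 1 and 1738 on array 2, which is 2.05 and 4.81 times the serum mean. Lrig1, a membrane protein that restrains EGF receptor family signalling, gave 332 and 341 in serum, then 681 and 1382. Dusp6, the phosphatase that inactivates ERK, gave 840 and 909 in serum, then 1628 and 4058. In each of these genes the serum arrays were nearly equal, both LY294002 arrays lay above them, and array 2 was the highest. Mmd, a membrane protein first known from maturing macrophages, had the same order, with 2078 and 2326 in serum, then 4515 and 9071. Both further Dusp6 probe sets kept that order as well, with 439 and 527 in serum, then 888 and 2087, for one, and 186 and 282, then 442 and 1125, for the other. The log2 changes over both arrays were 1.61 ± 0.43 for Hbegf, 1.49 ± 0.31 for Lrig1, 1.54 ± 0.44 for Dusp6 and 1.54 ± 0.31 for Mmd, with adjusted p-values from 0.508 to 0.696. Insyn1, Map3k9, Snrpn, Nrxn2 and Tgm4 completed the 12 named genes at lower signals, all at 220 or less with LY294002; for Insyn1 a brighter probe set gave 153 and 138 in serum against 174 and 268, a smaller separation.

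Genes below both serum arrays were led by Cryl1, which encodes a metabolic enzyme related to lens crystallins. It gave 343 and 270 in serum, 47.1 on LY294002 array 1 and 24.1 on array 2, a log2 change of -2.67 ± 0.28 and the smallest adjusted p of the comparison, 0.199. Nmu, the gene of the peptide neuromedin U, gave 232 and 244 in serum, then 69.8 and 18.7 (-2.22 ± 0.39). Both genes were below serum on each LY294002 array and were among the 10 calls of array 2 alone (adjusted p = 0.0387 for each, limma with 1 array against 2 and the spread of the other groups), but with both arrays neither passed (0.199 and 0.455). Rpp30, a protein subunit of ribonuclease P, gave 242 and 182 against 28.4 and 49.6. Kcnip3, a calcium-binding regulator of potassium channels and transcription, gave 839 and 950 in serum, then 390 and 43.3; it met the 2-fold count but was named after its values were seen. Hdhd3, Prickle2, Sult2b1, Cplx2, Ddb1, Ccdc117, Tap1, Rdm1 and Dcaf15 made up the rest of the 12, all under 230 in serum. For Dcaf15 a brighter probe set did not show the difference, with 322 and 302 in serum against 304 and 316. The brightest probe set of Ddb1 showed only a slight one (3623 and 3814 in serum against 3460 and 3418). A further bright Ddb1 probe set was lower on each LY294002 array by a small step (2900 and 2963 against 2256 and 2137). For Prickle2, a planar polarity gene, the brighter probe set gave 257 and 243 in serum, 193 on array 1 and 49.7 on array 2.

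**Figure D1:**
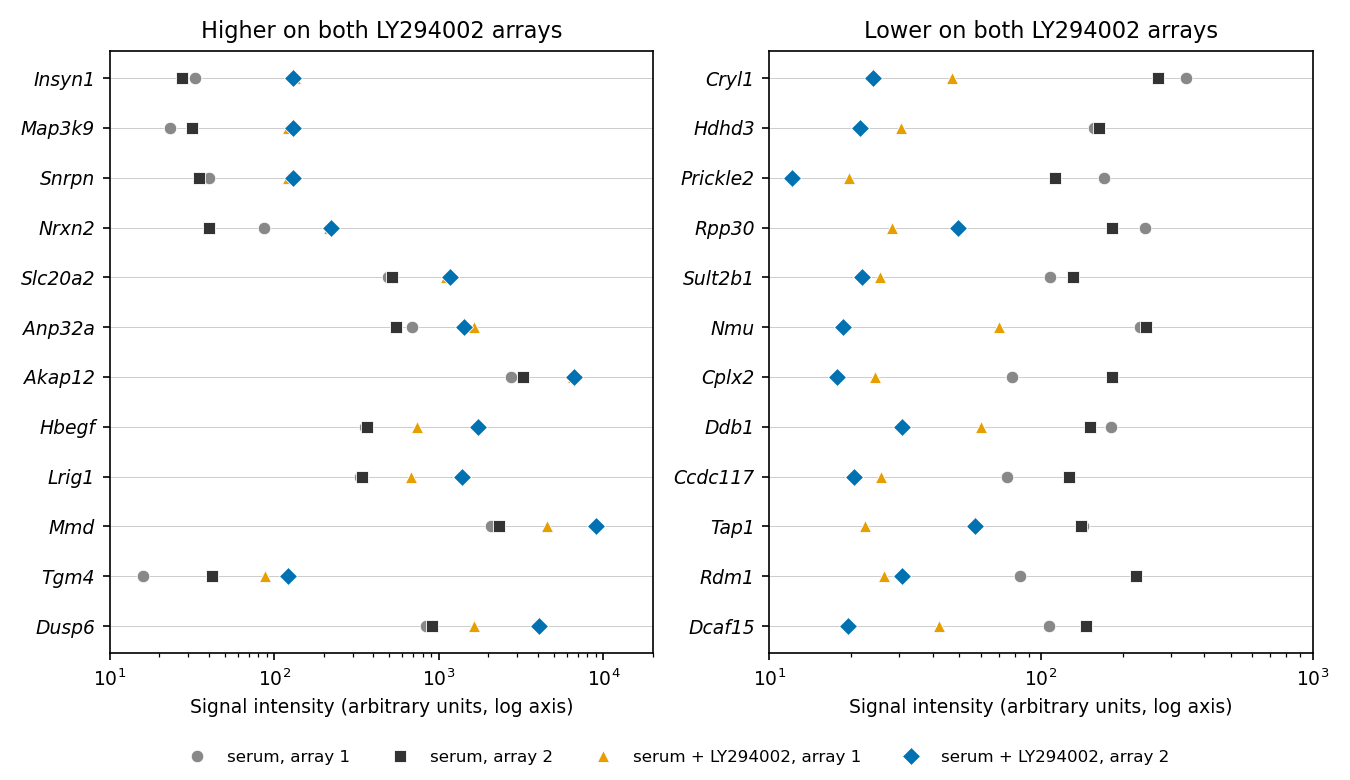
Signal intensity (log axis, arbitrary units) of the 12 genes named for lying above (left) and the 12 named for lying below (right) both serum arrays, with 1 point for each of the 4 control virus arrays. The points of the LY294002 arrays coincide for genes such as Slc20a2 (1107 and 1167) and Akap12 (6511 and 6626) and are apart for Dusp6 (1628 and 4058) and Nmu (69.8 and 18.7).

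Cholesterol genes set array 2 apart. Of 29 genes of cholesterol synthesis and uptake listed, 22 were measured, and 0 passed the test over both arrays; 13 lay at least 2-fold below both serum arrays on LY294002 array 2, where the share over all probe sets was 2.69%, and 0 of 22 on array 1. The list's median difference from serum was -1.82 on array 2 (-0.01 over all probe sets) and 0.10 on array 1 (0.04 over all), and -0.84 over both arrays. On array 2, 21 of the 22 lay below both serum arrays, all but Scap, against 6322 of 15866 over all probe sets. The serum arrays differed themselves, with summed signals of 40760 and 29730 for the list; LY294002 array 1 lay between them at 38610 and array 2 below both at 11320. Accordingly the median of array 1 was 0.32 without serum array 1 and -0.21 without serum array 2, while that of array 2 stayed at -1.53 and -2.03.

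The low values of array 2 were found from the start of the pathway to its end. At its start, Acat2, which joins 2 acetyl units, gave 2610 and 1826 in serum, 2908 on LY294002 array 1 and 404 on array 2. Idi1, the isomerase that makes the active isoprene unit, gave 1656 and 1071, then 1348 and 158. Fdps, the synthase of farnesyl diphosphate, gave 7375 and 6112, then 6795 and 1377. In all of these array 1 was within or near the serum range and array 2 was several-fold below it. Further along, Sqle, the squalene epoxidase and a rate-limiting step, gave 3448 and 2189, then 3368 and 509. Cyp51, the lanosterol demethylase, gave 4295 and 3151, then 3518 and 686, and Hsd17b7, a reductase of the same branch, 489 and 392, then 421 and 69.4. Cyp51 and Hsd17b7 were among the 10 calls of array 2 alone (adjusted p = 0.0393 and 0.0387, limma), whose spread comes from the other groups; with both LY294002 arrays the adjusted p was 0.751 for each. Insig1, which holds SREBP in the endoplasmic reticulum and is itself an SREBP target, gave 3688 and 1708 in serum, then 3127 and 361. The regulators Srebf2 (1456 and 1507 in serum, 2086 and 1319 with LY294002) and Scap (794 and 774, then 864 and 1122) did not share the low values of array 2. Srebf1 (740 and 601, then 491 and 338) and Insig2 (222 and 186, then 153 and 131) were the 2 listed genes with an unadjusted p under 0.05 and lay below both serum arrays on each LY294002 array. The sterol element, searched as TCACCCCAC and TCACCCCAT on either strand, was found in 1 of 19 matched promoters of the list (5.26%; 0.725% of all), that of Srebf2.

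Fatty acid synthesis genes were less uniform. Of 21 measured, 0 passed the test, 4 lay at least 2-fold below both serum arrays on array 2 (19.0%, against 2.69% over all probe sets) and 0 on array 1; the list's median was -0.38 on array 2 and 0.00 on array 1. Scd2, a desaturase, gave 4669 and 4900 in serum, 4463 on LY294002 array 1 and 944 on array 2, and Elovl6, an elongase, 820 and 562, then 595 and 107. The core enzymes Fasn (2838 and 1933, then 2582 and 1846) and Acly (3336 and 2558, then 2760 and 2666) stayed within or close to the serum range on both. Me1, the malic enzyme that supplies NADPH, was lower on each, at 945 and 1026, then 741 and 513 (-0.66 ± 0.23, limma adjusted p = 0.739).

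**Figure D2:**
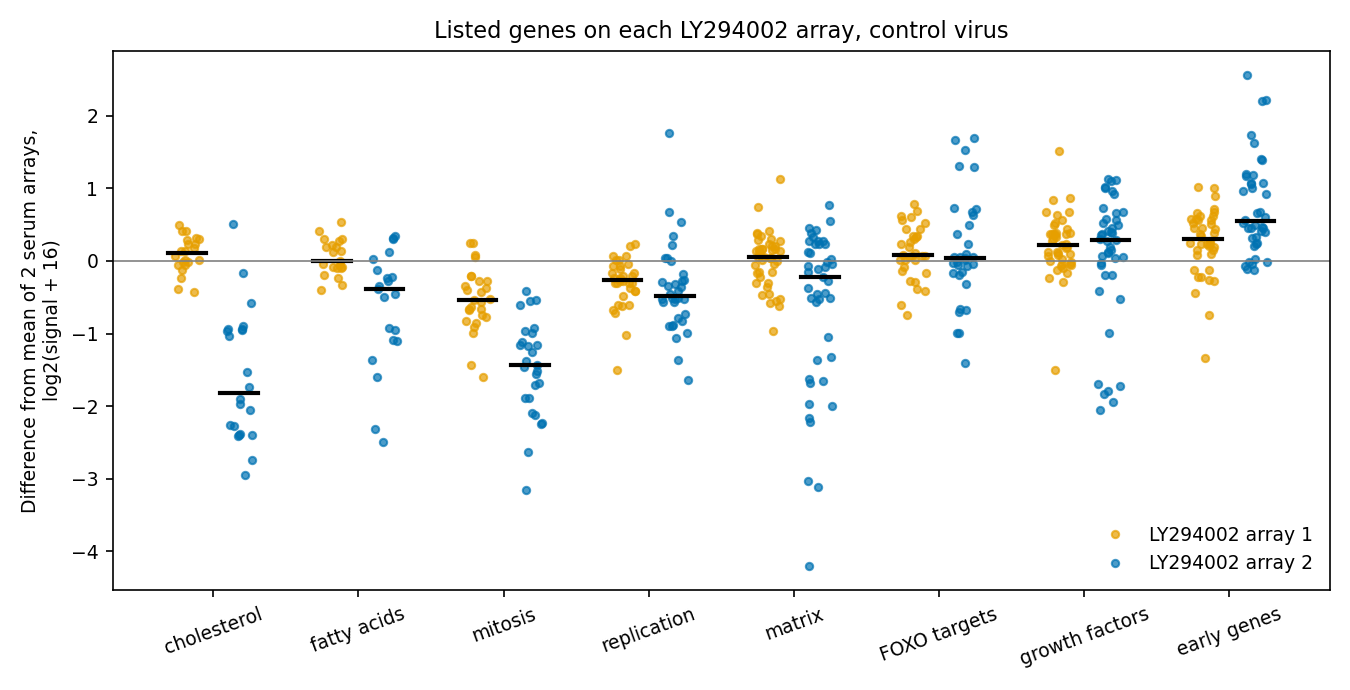
Difference of each listed gene from the mean of the 2 serum arrays, on the scale log2(signal + 16), for LY294002 array 1 and array 2, by gene list; 1 point is 1 gene and the bar is the list's median. The cholesterol list sits at a median of 0.10 on array 1 and -1.82 on array 2, whereas the early genes sit above 0 on both (0.31 and 0.54).

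Early genes of the serum response lay mostly above serum on both LY294002 arrays. Of 40 measured, 0 passed the test, 10 had an unadjusted p under 0.05 in the direction of higher signal (3.55% over all probe sets) and 0 in the other; 35 had a change above 0. The median was 0.31 on array 1 and 0.54 on array 2. On array 1, 28 of the 40 lay above both serum arrays (6386 of 15866 over all probe sets), and on array 2, 31 did (5934 of 15866). At least 2-fold above were 9 on array 2 (1.01% over all) and 0 on array 1. Junb, an AP-1 subunit, had the smallest p of the list, with 1403 and 1240 in serum against 2164 and 2511 (0.81 ± 0.18, limma adjusted p = 0.508). Id1, an inhibitor of differentiation factors, gave 2508 and 2896, then 4029 and 8319. Dusp5, a nuclear ERK phosphatase, gave 216 and 157, then 391 and 1167. Ier2, an early nuclear protein, gave 697 and 662, then 892 and 1550, and Dusp1, a phosphatase of several MAP kinases, 2208 and 2943, then 3230 and 4961. These genes kept the same order, with array 1 above both serum arrays and array 2 above array 1. Egr1 (6460 and 7060, then 7975 and 10703) followed them, but Fos did not: its serum arrays gave 491 and 1557, and both LY294002 arrays (751 and 1272) lay between them. Jun (1048 and 1487, then 913 and 1216) likewise did not lie above serum.

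The promoters of 32 of these genes were matched in RefSeq (GRCr8; 250 bases before to 50 after the start). The cyclic AMP response element TGACGTCA, the same on both strands, was present in 3 of them (9.38%; 2.86% of the promoters of measured genes and 1.91% of all 27457). Those of Ier2 and Dusp1 are shown because both genes were higher on each LY294002 array; capitals mark the element, whose first base lies 66 and 124 bases before the start. Both windows are on the plus strand, at chr19:40399123-40399422 for Ier2 and chr10:17184603-17184902 for Dusp1.
Ier2: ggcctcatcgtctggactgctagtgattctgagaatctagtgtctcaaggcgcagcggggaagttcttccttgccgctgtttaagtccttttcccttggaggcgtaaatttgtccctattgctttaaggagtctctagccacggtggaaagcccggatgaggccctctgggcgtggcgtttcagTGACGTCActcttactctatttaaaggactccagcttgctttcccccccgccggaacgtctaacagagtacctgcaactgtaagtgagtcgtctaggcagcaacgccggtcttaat
Dusp1: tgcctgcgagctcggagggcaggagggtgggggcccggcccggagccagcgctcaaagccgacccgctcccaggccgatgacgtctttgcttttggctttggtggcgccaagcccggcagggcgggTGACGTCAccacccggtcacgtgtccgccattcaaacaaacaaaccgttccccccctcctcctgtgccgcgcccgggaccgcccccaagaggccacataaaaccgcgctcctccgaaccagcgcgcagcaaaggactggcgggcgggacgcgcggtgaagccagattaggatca
The third promoter with the element, that of Jund, belongs to a gene with signals of 36.9 or less on all 4 arrays.

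**Figure D3:**
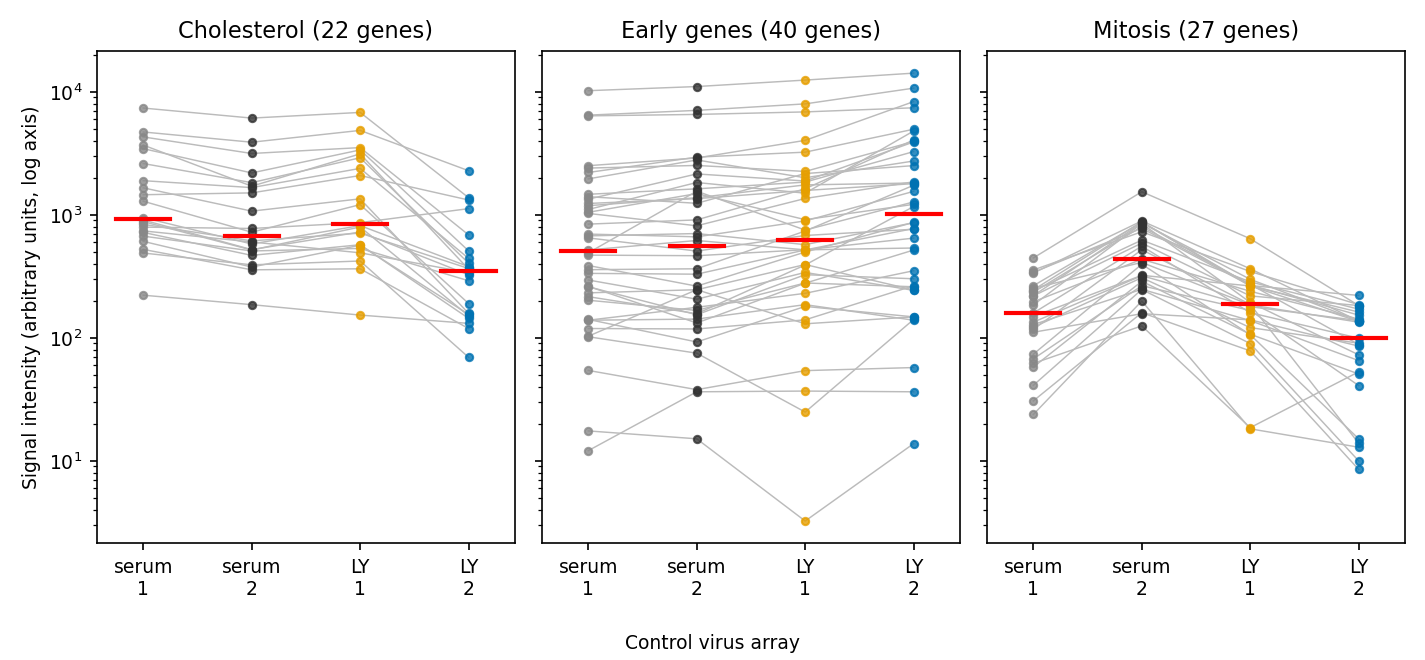
Signal intensity (log axis, arbitrary units) of the measured genes of 3 lists on the 2 serum and 2 LY294002 arrays of control virus cells; grey lines join the values of 1 gene and red bars are the medians of the array. Cholesterol genes are low on LY294002 array 2 alone, early genes are high on it, and mitosis genes are apart on the serum arrays too, with summed signals of 4814 and 14360.

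Mitosis genes had a negative median on both LY294002 arrays, but the serum arrays disagreed on their level. All 27 measured genes had a change below 0 over both arrays, with a median of -1.04 (-0.54 on array 1 and -1.43 on array 2); 0 passed the test, and 6 had an unadjusted p under 0.05 (3.07% lower over all probe sets). The summed signal was 4814 on serum array 1 and 14360 on serum array 2, against 5615 and 2792 with LY294002, so that array 1 lay between the serum arrays and array 2 below both. Without serum array 2 the median of array 1 was 0.19 and that over both arrays -0.30; without serum array 1 they were -1.30 and -1.74. Cdk1, the kinase that drives entry into mitosis, gave 341 and 777 in serum, 266 on LY294002 array 1 and 221 on array 2. Cdc25b, a phosphatase that activates it, gave 253 and 410, then 185 and 134. These 2 were below both serum arrays on each LY294002 array. On array 1, 7 of the 27 were, which is no larger than the share over all probe sets (4630 of 15866). Kif20a, a motor protein of the late spindle, gave 117 and 520, then 187 and 13.9, and Mki67, the proliferation marker Ki-67, gave 185 and 849, then 194 and 72.7; for both, array 1 lay within the serum range. On array 2, 25 of the 27 lay below both serum arrays (6322 of 15866 over all probe sets) and 7 at least 2-fold below (2.69% over all).

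DNA replication genes showed the same dependence on the serum arrays. Of 34 measured, 28 had a change below 0 and 0 passed the test; the median was -0.26 on array 1 and -0.48 on array 2, and over both arrays it was -0.35, but 0.01 without serum array 2 and -0.66 without serum array 1. Rfc3, a subunit of the clamp loader, was below both serum arrays on each LY294002 array, with 348 and 478 in serum against 249 and 240 (-0.70 ± 0.22, limma adjusted p = 0.722). Pola2, a subunit of the polymerase that primes synthesis, gave 59.9 and 92.4 against 16.1 and 13.1 (-1.57 ± 0.28, limma adjusted p = 0.455). Mcm6, a subunit of the replicative helicase, gave 188 and 554 in serum, then 228 and 155, so that the serum arrays were farther apart than the LY294002 arrays. Pcna, the sliding clamp, gave 1435 and 2119, then 1414 and 2540.

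E2F sites were searched as TTTCCCGC, TTTGGCGC and TTTCGCGC on either strand. They occurred in 13 of the 31 matched replication promoters (41.9%; 3.0% of the promoters of measured genes and 1.82% of all) and in 1 of 24 of the mitosis list (4.17%), that of Cdk1. The promoters of Rfc3, which was lower on each LY294002 array, and of Mcm6, which was not, are shown with the matches in capitals. That of Rfc3 (chr12:5836318-5836617, plus strand, GRCr8) holds 2 separate matches around the start, and that of Mcm6 (chr13:42404303-42404602, minus strand) holds 2 that overlap and read as 1 run.
Rfc3: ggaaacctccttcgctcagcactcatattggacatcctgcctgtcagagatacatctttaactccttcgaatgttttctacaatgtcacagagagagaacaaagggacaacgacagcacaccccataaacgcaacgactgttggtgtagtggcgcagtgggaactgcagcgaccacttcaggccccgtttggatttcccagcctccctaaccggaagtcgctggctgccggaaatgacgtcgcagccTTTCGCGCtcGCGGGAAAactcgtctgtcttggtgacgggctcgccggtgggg
Mcm6: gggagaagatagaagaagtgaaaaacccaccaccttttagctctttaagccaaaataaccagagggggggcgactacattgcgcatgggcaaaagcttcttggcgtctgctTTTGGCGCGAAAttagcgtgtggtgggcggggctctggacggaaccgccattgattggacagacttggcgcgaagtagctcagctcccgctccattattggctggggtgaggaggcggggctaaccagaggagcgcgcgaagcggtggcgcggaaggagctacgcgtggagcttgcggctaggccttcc
A match in these windows is a description of the letters and not of binding.

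Of 14 measured genes of G1 and S phase entry, 10 had a change below 0 (7582 of 15866 over all probe sets) and 0 passed the test. Ccnd1, the G1 cyclin, gave 3924 and 5002 in serum, 3474 on LY294002 array 1 and 3135 on array 2 (-0.42 ± 0.36). Ccne1, the cyclin of S phase entry, gave 280 and 332, then 242 and 141 (-0.67 ± 0.29). Both were below the serum arrays on each LY294002 array, with adjusted p-values of 0.822 and 0.743. All 7 Cdk inhibitors measured had a change below 0 (7582 of 15866 over all probe sets), and 0 passed the test. Their median was -0.49, with -0.21 on array 1 and -0.73 on array 2. On array 1, 3 of the 7 lay below both serum arrays (4630 of 15866 over all probe sets), and on array 2, 6 did (6322 of 15866). For Cdkn3, also on this list, the serum arrays lay apart at 81.5 and 338, with 127 and 5.98 on the LY294002 arrays. Cdkn1b, which encodes p27 and is a FOXO target, gave 1141 and 1124 in serum, then 864 and 1012; a dimmer probe set gave 74.7 and 87.9, then 107 and 190, the opposite order. Cdkn1a, which encodes p21, gave 5471 and 6226, then 4879 and 3518.

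FOXO targets had medians near those of all probe sets, 0.08 on array 1 and 0.04 on array 2, with single members well above serum on array 2. Of 33 measured, 0 passed the test, and 4 had an unadjusted p under 0.05 in the direction of higher signal (3.55% over all probe sets) and 0 in the other. On array 2, 5 (15.2%) lay at least 2-fold above both serum arrays (1.01% over all) and 1 (3.03%) at least 2-fold below (2.69% over all). Gadd45b, a stress-induced regulator, gave 873 and 1111 in serum, then 1505 and 3166. Cited2, a transcriptional coregulator, gave 2769 and 2683, then 3350 and 8897, and Cat, the catalase gene, gave 706 and 691, then 1008 and 1730. These 3 had the order seen for the early genes, and Gadd45b belongs to the stress response as well. Rictor, a subunit of mTOR complex 2, gave 342 and 307, then 490 and 540 (0.64 ± 0.22, limma adjusted p = 0.722). The receptor and adaptor genes that FOXO is known to raise were not uniform: Irs2 gave 786 and 474, then 699 and 1022, Insr 162 and 157, then 223 and 138, and Ccng2, a FOXO-induced cyclin, 418 and 257, then 346 and 339. Bcl2l11 (696 and 563, then 591 and 608) stayed within the serum range. The FOXO motif GTAAACA, on either strand, was found in 4 of 28 matched promoters of this list (14.3%; 2.26% of the promoters of measured genes), those of Insr, Bcl2l11, Trim63 and Pik3ca.

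Genes of the pathway itself and of growth factor signalling showed single differences. Of 31 measured PI3K, Akt and mTOR genes, 0 passed the test; the median was 0.05 on array 1 and 0.06 on array 2. Sgk1, a kinase related to Akt and activated through PI3K, gave 613 and 704 in serum, then 957 and 1905 (1.02 ± 0.44, limma adjusted p = 0.743). Grb10, an adaptor that dampens insulin receptor signalling, gave 2822 and 3251, then 2275 and 730. Of 43 growth factor and receptor genes, 30 had a change above 0 (8284 of 15866 over all probe sets) and 0 passed the test. On array 2, 1 (2.33%) lay at least 2-fold above both serum arrays (1.01% over all) and 5 (11.6%) at least 2-fold below (2.69% over all). Igf1r, the receptor of insulin-like growth factors, had the smallest p, with 1384 and 1180 in serum, 2041 on LY294002 array 1 and 2766 on array 2 (0.89 ± 0.23, limma adjusted p = 0.633). Axl, a receptor kinase, gave 2935 and 3348, then 4107 and 6802. Igfbp5, a secreted binding protein of these growth factors, gave 293 and 112, then 54.2 and 45.4. Odc1, of polyamine synthesis, gave 1340 and 2149, then 1882 and 3910, and Vegfa, the endothelial growth factor, 678 and 528, then 648 and 847. Hk2, a hexokinase, gave 296 and 187, then 282 and 138. Pik3r1, a regulatory subunit of PI3K, gave 105 and 43.2, then 120 and 71.7. For Odc1, Vegfa, Hk2 and Pik3r1, at least 1 of the LY294002 arrays was within the serum range. Pdgfrb (2467 and 1677, then 2559 and 607) and Igfbp6 (3586 and 3287, then 3217 and 819) were low on array 2 alone.

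Some matrix genes were far below serum on array 2, while others were above it. Of 43 matrix and contractile genes, 0 passed the test, and the median was 0.06 on array 1 and -0.22 on array 2. On array 2, 10 (23.3%) lay at least 2-fold below both serum arrays (2.69% over all probe sets), and on array 1, 0 did. On array 2, 13 of the 43 lay above both by any amount, a smaller share than over all probe sets (5934 of 15866). Col3a1, a fibrillar collagen, gave 13938 and 14162 in serum, 12638 on LY294002 array 1 and 1705 on array 2. Postn, the matrix protein periostin, gave 8372 and 7192, then 5056 and 408, and Lox, which crosslinks collagen, 4567 and 5591, then 3689 and 571. For all 3, array 1 lay below both serum arrays by a small step and array 2 by a large one. Other matrix genes showed no such step: Bgn, a small proteoglycan, gave 12987 and 12640, then 12490 and 12182. Sparc, a matrix protein, was lower on array 2 by a smaller step (12809 and 12750, then 12798 and 8867), and Fn1, fibronectin, was above both serum arrays on each (12956 and 12353, then 14234 and 17077). Of the 18 fibroblast markers, 5 lay at least 2-fold below both serum arrays on array 2 (2.69% over all), but the marker list shares genes with the matrix list, Col3a1, Col5a1 and Postn among them, and is no separate count; whether a change in the cells of that array has a part in this was not tested.

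The probe sets that differed most between the LY294002 arrays were of this kind. Eno3, the muscle form of enolase, gave 2353 and 3569 in serum, 1330 on LY294002 array 1 and 31.5 on array 2, a ratio of 93.9 between the serum mean and array 2. Ogn, the small proteoglycan osteoglycin, gave 1674 and 894, then 977 and 17.8, with the same order on a further probe set (2361 and 1469, then 1680 and 62.3). Car3, a carbonic anhydrase, gave 4290 and 3382, then 2581 and 87.1. Array 1 was within the serum range or below it for these genes, and array 2 was the lowest array by a wide margin. Aqp1, a water channel, gave 3188 and 824, then 990 and 27.2, but its second probe set gave 2005 and 906, then 1058 and 347, a smaller step. Serpinf1 and Stard10 shared the pattern, with 76.3 and 14.2 on array 2 against at least 1652 and 490 in serum. In the other direction, Ankrd1, a stress-induced nuclear protein of muscle and fibroblasts, gave 873 and 1571, then 1620 and 7558, and a second probe set gave 2141 and 3428, then 4132 and 11907. Purb, Pla2g12a, Cpne5 and Mus81 were also higher on array 2 than on array 1, each at signals under 400, and for Purb a brighter probe set gave 538 and 778 in serum, then 656 and 1126. The 10 calls of array 2 alone included Ldb3, Slc6a9, Slc7a9, Ogn and Eno3 among the lower and Pygl, the liver glycogen phosphorylase, as the only higher one, with 8.86 and 8.16 in serum, then 27.3 and 89.8.

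In cells with the E2F1 adenovirus, LY294002 was measured on 4 further arrays that share none with these. There 0 probe sets passed the test (0.0%; limma, 1769 at an unadjusted p under 0.05). The difference of the LY294002 effect between viruses also gave 0 calls (0.0%; 998 at an unadjusted p under 0.05). Over 12000 probe sets, the differences of control virus array 2 from serum correlated with those of E2F1 virus array 2 at r = 0.50 and with E2F1 virus array 1 at 0.23, whereas control virus array 1 gave -0.04 and 0.06; these are correlations across probe sets, which are not replicates, and each array's differences share the serum mean of its virus. The second LY294002 arrays of both viruses also share the higher mean signal (697 and 701) and the larger 3' excess (0.33 and 0.90).

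Cholesterol genes were low on both E2F1 virus LY294002 arrays, with medians of -0.66 and -0.85 against 0.10 and -1.82 in control virus cells. Fdps gave 3230 and 4115 in serum with E2F1, then 1246 and 895, and Idi1 642 and 1014, then 268 and 260. In these genes both E2F1 virus LY294002 arrays lay below their serum arrays, whereas control virus array 1 did not. Early genes had medians of 0.08 and 0.51 with E2F1 against 0.31 and 0.54. Dusp6 gave 1259 and 1321 in serum with E2F1, then 1409 and 2679. Both Slc20a2 and Cryl1, which separated on each control virus array, overlapped their serum arrays or lay near them with E2F1: Slc20a2 gave 864 and 735, then 858 and 807, and Cryl1 gave 390 and 475, then 376 and 549. The difference between viruses was 2.75 ± 0.39 for Cryl1 (limma adjusted p = 0.255) and -1.09 ± 0.23 for Slc20a2 (adjusted p = 0.567), so neither passed.

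**Figure D4:**
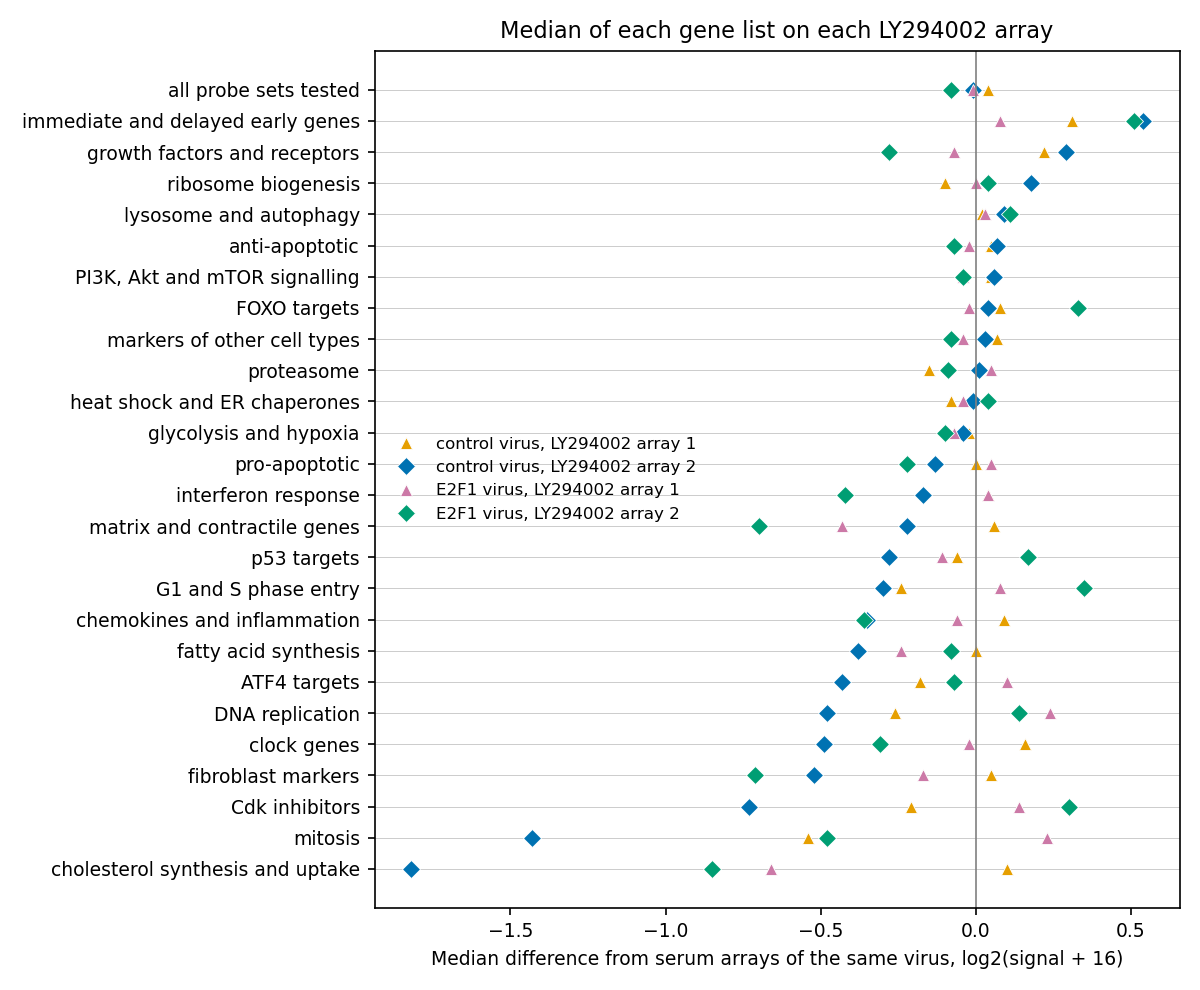
Median difference of each gene list from the serum arrays of the same virus, on the scale log2(signal + 16), for the 4 LY294002 arrays of both viruses, with all probe sets in the top line. The cholesterol list reads 0.10 and -1.82 with control virus and -0.66 and -0.85 with E2F1, and the mitosis list -0.54 and -1.43 against 0.23 and -0.48.

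The single array of deprived control virus cells shares its serum arrays with the LY294002 comparison, so its values are only set beside them. Cryl1 gave 86.4 when deprived, near the 47.1 and 24.1 with LY294002, and Akap12 gave 7253, near 6511 and 6626. Fos and Zfp36 were higher when deprived than with LY294002: Fos gave 3955 and Zfp36, an RNA-binding protein that destabilises early transcripts, 3167 (1026 and 814 in serum, then 1357 and 1854). Dusp6 gave 1504 when deprived, near LY294002 array 1 (1628), whereas Hbegf gave 474, nearer to the serum arrays (358 and 364) than to LY294002 array 1 (738). For mitosis genes the summed signal was 3089 when deprived, between the 5615 and 2792 of the LY294002 arrays, and for cholesterol genes it was 22600, between 38610 and 11320.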

How the data were processed

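Total RNA was measured on 11 rat Affymetrix RAE230A arrays. The authors deposited 1 intensity per probe set and array on a linear scale, and its mean without the top and bottom 2% is 500.0 on every array. MAS5 and RMA are named, per the submitters' processing notes, with neither role nor version. Of 15923 probe sets, 57 controls were left out and 15866 tested; 12783 have 1 symbol, 312 several and 2771 none.

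Values were analysed as log2(signal + 16) with limma 3.58.1 (R 4.3.3): lmFit and eBayes with 6 group means over 11 arrays, Benjamini-Hochberg adjusted, threshold 0.05. Each LY294002 array was also fitted alone against both serum arrays. On simulated data the test called 20% of genes changed by log2 1 and 83% of those changed by log2 2. The simulation gave all arrays of a probe set the same spread. Fitted array weights, which are lower for noisier arrays, were 0.638 for each control virus LY294002 array and 1.375 for each serum array. Both percentages may therefore be too high for this comparison. An exact permutation test of 2 arrays against 2 cannot go below 0.333.

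Named genes were the 12 in each direction with the widest gap between groups (called or not), the 2 smallest p-values of each of 25 lists, the 6 largest differences between LY294002 arrays each way, and genes of known interest; other genes were named after their values were seen. A gene in a list is its brightest probe set; 687 of 821 entries were measured. Members and lists were chosen with earlier results of these data known. Promoters are from RefSeq (GRCr8), matched by symbol. 1 gene is not reported here.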

Additional observations from a re-analysis of the deposited data

Results flagged for a closer look

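For 7 named genes, both LY294002 arrays of one virus lay outside their serum arrays one way and both of the other virus the opposite way; the difference between viruses was tested with limma, and none passed. Nmu, the neuromedin U gene, gave 232 and 244 in serum against 69.8 and 18.7 with LY294002 in control virus cells. With E2F1 it gave 23.8 and 22.2 against 24.8 and 45.4, a difference (E2F1 minus control virus, log2) of 2.58 ± 0.55 (SE, limma adjusted p = 0.568). Serum signals this low with E2F1 left little room for a fall, and LY294002 array 1 there was only 0.07 above the serum mean (log2). Ccne1, the cyclin of S phase entry and an E2F target, gave 280 and 332 against 242 and 141 with control virus and 2086 and 1550 against 2291 and 3236 with E2F1, a difference of 1.27 ± 0.41 (limma adjusted p = 0.741). For Rfc3, a clamp loader subunit, the difference was 1.12 ± 0.31 (limma adjusted p = 0.735). Cdkn1b, the p27 gene, differed by 1.60 ± 0.62 (limma adjusted p = 0.770), and its E2F1 virus LY294002 arrays stood apart from each other at 2693 and 7875; a dimmer probe set was higher with LY294002 in both viruses (log2 changes of 0.71 and 1.45, a difference of 0.73 ± 0.69), so the opposite directions hold for the brighter probe set only. Mcl1, a survival gene, went the other way, with 1186 and 1376 against 1750 and 1814 with control virus and 1455 and 1657 against 1154 and 1241 with E2F1, a difference of -0.85 ± 0.23 (limma adjusted p = 0.729). The lysosomal regulator Tfeb differed by 0.89 ± 0.29 (limma adjusted p = 0.741) and Trib3, a pseudokinase that binds Akt, by 1.20 ± 0.44 (limma adjusted p = 0.759). Further probe sets of Trib3 were divided. One was higher with LY294002 in both viruses (0.60 with control virus and 0.19 with E2F1, a difference of -0.41 ± 0.82). Another kept the opposite directions (-1.25 and 1.73, a difference of 2.98 ± 1.38), but its control virus serum arrays lay far apart at 10.8 and 123.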

How the results depend on the processing

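The count of 0 calls in control virus cells stayed at 0 under quantile normalization, median centring, offsets of 1 and 64, trended or robust variance, array weights, the compared groups alone, no dim probe sets, and without both second LY294002 arrays (added after the data were seen). With the replicate number as a replicate block it was 0 too; second minus first array correlated at 0.05 between serum and LY294002 arrays of the control virus and at 0.30 between the LY294002 arrays of both viruses, with the other pairs of groups between -0.02 and 0.07, so not every pair passes 0.1 and the numbers were not taken as pairs. Leaving out 1 array gave 0 to 10 calls (10 without LY294002 array 1), 0 to 1 for the difference between viruses, and 0 to 325 in E2F1 virus cells (325 without their LY294002 array 1). Probe sets 2-fold beyond serum on both arrays, 10 above and 14 below, numbered 3 and 5 with an offset of 64, 6 and 9 without the dimmest 30%, and 89 and 104 with a gap of 0.5. Leaving out 1 array gave 37 to 160 above (45 without serum array 2, 62 without serum array 1) and 35 to 427 below (35 without serum array 2, 100 without serum array 1). The 24 genes named for these gaps gave 498 values over 21 settings, of which 0 changed sign. They were chosen because both LY294002 arrays lay beyond both serum arrays. Another offset or 1 array left out could therefore not change their sign, and that 0 is no evidence of stability. Low signals limit many of these genes, since 16 is added to each.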

Other observations

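ATF4 is a stress transcription factor known to drive genes of amino acid synthesis and transfer RNA charging. Of 32 measured targets, 17 lay below both serum arrays on each LY294002 array (2697 of 15866 over all probe sets) and 2 above (3258 of 15866). A change below 0 was seen for 25, and 5 had an unadjusted limma p under 0.05 on the lower side (3.07% over all probe sets). Of the 32, 0 passed the limma test, and the medians were -0.18 on array 1 and -0.43 on array 2. Gars1, the glycine transfer RNA synthetase, gave 3843 and 3941 in serum, then 2823 and 1944. Psat1, of serine synthesis, gave 645 and 1280, then 294 and 575, and Mthfd2, the mitochondrial folate enzyme, 376 and 705, then 304 and 190. These 3 are among the 17.

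Clock genes had medians of 0.16 on array 1 and -0.49 on array 2, with 0 of 14 past the limma test. At an unadjusted limma p under 0.05, 2 were higher (3.55% over all probe sets) and 2 lower (3.07%). On each LY294002 array, 5 lay above both serum arrays (3258 of 15866 over all probe sets) and 4 below (2697 of 15866). Among the lower genes, Bmal1, the core activator, gave 274 and 276 in serum, then 204 and 119, and Bhlhe41, a repressor, 1060 and 779, then 519 and 225. The 31 inflammation genes had medians of 0.09 on array 1 and -0.35 on array 2. On each LY294002 array, 6 lay below both serum arrays (2697 of 15866 over all probe sets) and 3 above (3258 of 15866). Among the lower genes, Nfkbia, the NF-kappaB inhibitor, gave 593 and 496, then 326 and 376, and Nfkb1 gave 1758 and 1379, then 1131 and 878. Ccl2, a monocyte chemokine, was lower on array 2 by a larger step, at 2813 and 2499, then 1969 and 514. The 25 interferon response genes had medians of 0.04 on array 1 and -0.17 on array 2. On each LY294002 array, 7 of them lay below both serum arrays (2697 of 15866 over all probe sets) and 6 above (3258 of 15866). The peptide transporter gene Tap1 (143 and 141, then 22.6 and 57.1) and the immunoproteasome gene Psmb9 (38.3 and 78.0, then 12.9 and 3.76) had the smallest limma p-values of that list. The remaining lists, on ribosome biogenesis, glycolysis and hypoxia, lysosome and autophagy, p53 targets, apoptosis, chaperones and the proteasome, had medians over both arrays between -0.17 and 0.08, with 0 genes past the test in any of them.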
